A study of Homo sapiens with 12 samples.

Results

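The 8 genes described here encode parts of the PI3K-AKT pathway: PIK3R1, PIK3CD, PIK3CG, PIK3IP1, IRS2, AKT1, AKT2 and MTOR. They were followed through 8 lists of chromatin regions bound by the glucocorticoid receptor (NR3C1) or by STAT5B. A region belonged to a gene when its summit lay in the gene's hg38 span or within 50 kb of it. Of 11908 regions in the 8 lists, 31 met this rule, and overlapping regions of different lists merged into 19 sites. PIK3CG had no site, so 7 of the 8 genes are described by their regions.

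The libraries came from chromatin immunoprecipitation and sequencing (ChIP-seq) in the SUPT-1 cell line, grown from a human T-cell acute lymphoblastic leukaemia and selected here with puromycin. In all groups doxycycline induced overexpression of STAT5B, either wild type (WT line) or the N642H mutant (N642H line). The treated groups received 250 µg/ml of prednisolone, a synthetic glucocorticoid, for 16 hours, and the others received none. Each combination of antibody (NR3C1 or STAT5B), line and treatment was 1 library, so no difference between libraries has a replicate check, and the 4 input libraries were not analysed here.

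Class I PI3-kinases phosphorylate a membrane lipid in response to receptors for antigen, cytokines and growth factors. A regulatory subunit such as the one encoded by PIK3R1 stabilises a catalytic subunit such as the PIK3CD product, and adaptors such as IRS2 bring the enzyme to activated receptors. The lipid recruits AKT kinases to the membrane, and MTOR, the kinase of both mTOR complexes, lies downstream of AKT and is also part of the complex that fully activates it.

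The labels were checked on genes outside the pathway. FKBP5 and TSC22D3, textbook targets of the glucocorticoid receptor, had no NR3C1 region in either untreated list. With prednisolone their strongest NR3C1 regions had folds of 73.0 and 73.8 in the WT line and of 106 and 106 in the N642H line. CISH, a STAT5 target, had STAT5B regions in the N642H line, with a highest fold of 12.7 untreated and 7.91 with prednisolone. It had none in either WT-line STAT5B list. FKBP5 also had STAT5B regions in every STAT5B list, with folds up to 17.2, in the prednisolone WT line. TSC22D3 had them with prednisolone, at 7.78 in the WT line and 8.69 in the N642H line. CISH had an N642H-line NR3C1 fold of 12.7 with prednisolone. In the prednisolone N642H line each of these genes thus had regions of both antibodies, so being listed there does not tell the antibodies apart. In the untreated N642H line FKBP5 and CISH had STAT5B regions and no NR3C1 region. A fold here is the peak caller's enrichment of ChIP fragments over local background at the summit. Both the fold and the −log10 q of a region are the peak caller's values as the authors deposited them, ranks are by −log10 q within a list, and values of different lists set side by side describe those lists without measuring a change. The lists held 2 regions for each untreated NR3C1 library and between 446 and 4542 for the others.

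NR3C1 was found at these genes only in the lists from prednisolone-treated cells. The WT line had 4 NR3C1 regions, 1 each at PIK3R1, PIK3IP1, IRS2 and MTOR. The N642H line had 12, at the same 4 genes and at PIK3CD. Both untreated NR3C1 lists had 0 at the 8 genes, where 0.0449% of the 20037 protein-coding genes had a region in each. With prednisolone 4 of 8 genes had a region in the WT line, against 6.44% of all genes, and 5 of 8 in the N642H line, against 16.7%. The 4 genes with an NR3C1 region in both lines compare with 5.90% of all genes. The member genes are longer than most, with a median span of 49.4 kb against 24.1 kb. Among the 12031 genes whose spans lay in the members' range, the shares were 6.35% in the WT line and 17.1% in the N642H line. The larger number of NR3C1 regions in the N642H line went with a longer list. Among the 446 strongest regions of each list the lines had 3 member regions each, at PIK3R1, PIK3IP1 and MTOR.

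STAT5B was found mostly in the untreated lists. In the untreated WT line PIK3R1, IRS2, AKT1 and AKT2 had 1 region each, so 4 of 8 genes had a region, against 23.2% of all genes. In the untreated N642H line 6 of 8 genes had one, PIK3IP1 and PIK3CG being without, against 39.4%. With prednisolone the N642H list held 1 member region, at PIK3CD, where 4.84% of all genes had one. The prednisolone WT list held 0 member regions, where 9.61% of all genes had one. Among the 446 strongest regions of each list, STAT5B had 1 member region in the untreated WT line, 2 in the untreated N642H line and, with prednisolone, 0 and 1. When regions counted only for their nearest protein-coding gene, an alternative chosen after seeing the data, the untreated lists had 2 and 6 member regions.

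**Figure D1:**
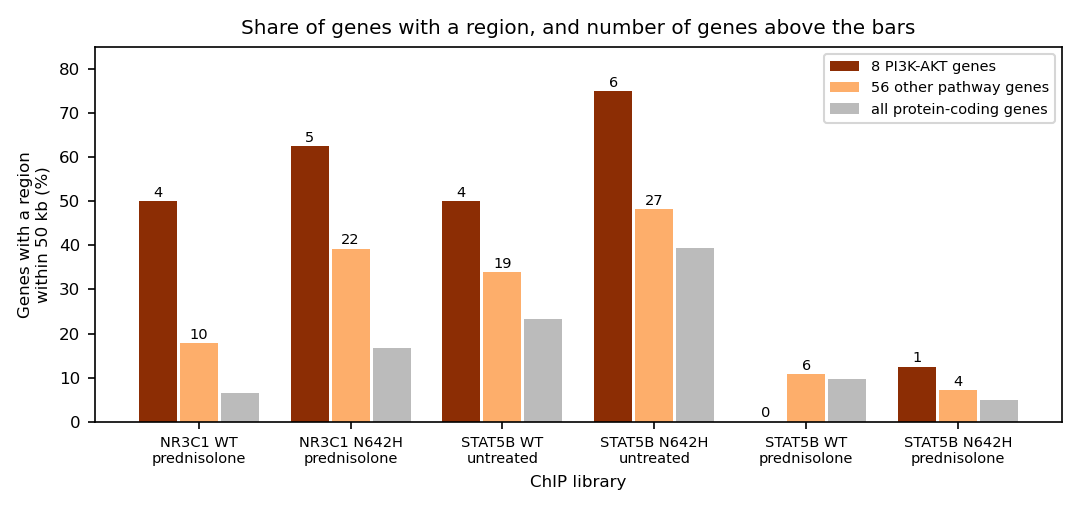
Percentage of genes with a region in the span or within 50 kb, for the 8 PI3K-AKT genes, 56 other pathway genes and all protein-coding genes, in the 6 long lists (x axis: antibody, line and treatment). Numbers above the bars count genes. For the 8 genes the NR3C1 bars stand at 4 and 5, and the STAT5B bars at 4 and 6 untreated and 0 and 1 with prednisolone. The STAT5B bars of all genes are also lower with prednisolone, at 9.61% against 23.2% in the WT line and 4.84% against 39.4% in the N642H line.

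Sites are numbered from the 5′ to the 3′ side of each gene. Of the 19 sites, 8 held NR3C1 alone, 7 held STAT5B alone and 4 held both. The 4 sites with both were PIK3CD sites 1 and 2 and IRS2 sites 1 and 3, and at each the STAT5B region came from the N642H line. No site held NR3C1 and STAT5B regions of the WT line together. Of all 995 WT-line NR3C1 regions, 16.3% overlapped untreated and 14.1% prednisolone STAT5B of that line.

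**Figure D2:**
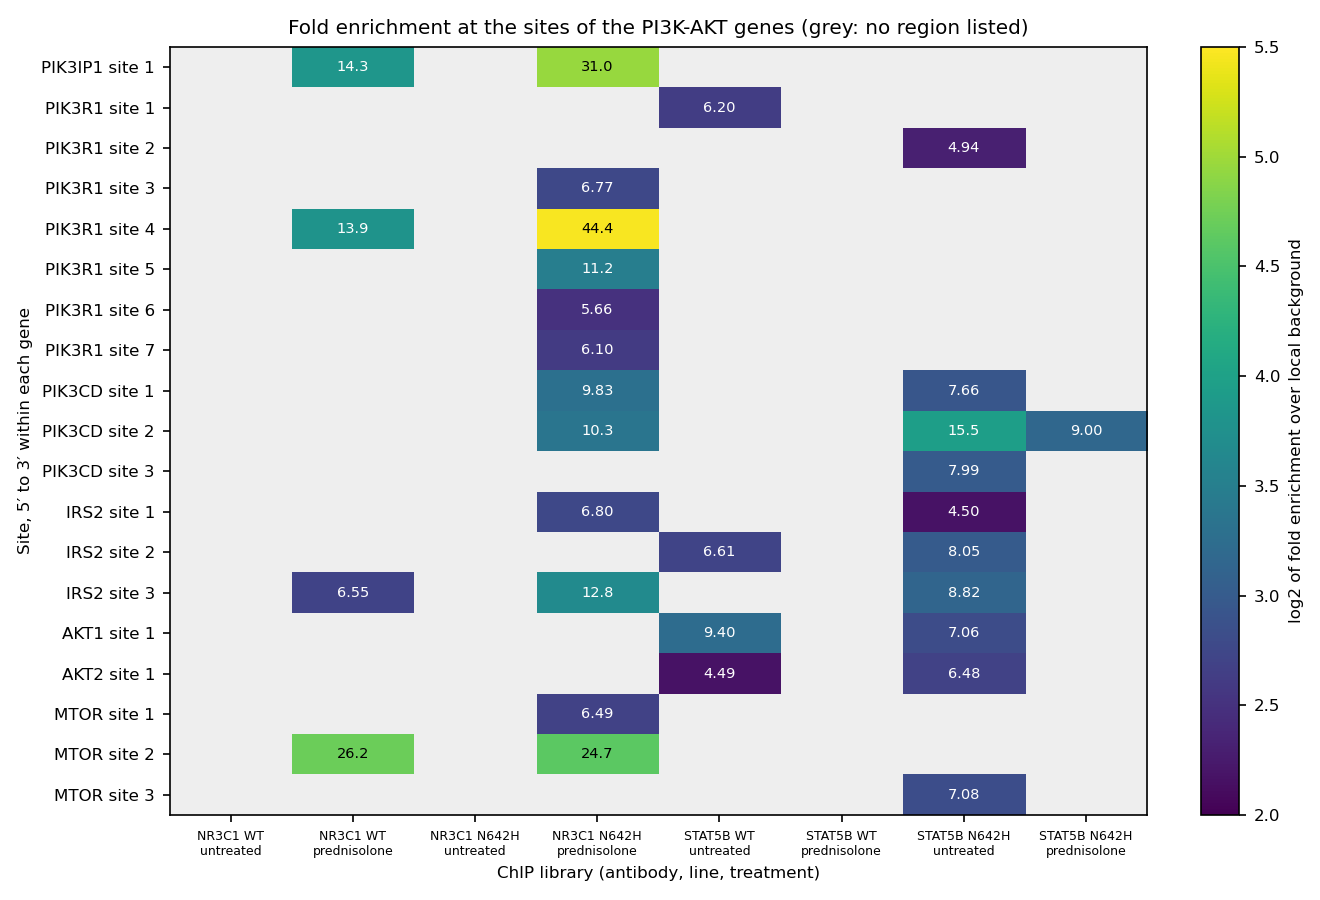
Fold enrichment at the 19 sites (rows) in the 8 libraries (columns). Colour gives the log2 of the fold, the printed number is the fold itself, and grey means that no region was listed. The highest value is 44.4 at PIK3R1 site 4, and PIK3CD has values in the N642H line only.

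PIK3R1, the gene of the main class IA regulatory subunit (p85α and its shorter forms), had 7 sites and 8 regions, the largest number among the 8 genes. Its span is chr5:68215756-68301821, on the plus strand. It had 5 NR3C1 regions in the N642H line, and 5 or more were linked to 0.220% of all protein-coding genes. Site 4 was the strongest region at any of the 8 genes. At chr5:68261684-68262042 in the N642H line it had a fold of 44.4 and a −log10 q of 158, rank 75 of 2888. The WT-line region at chr5:68261725-68261942 had a fold of 13.9 and a −log10 q of 22.8, rank 240 of 995. The summits lay 3 bp apart, inside the gene and more than 26 kb from its nearest listed start.

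The other NR3C1 sites of PIK3R1 were listed in the N642H line alone. Inside the gene these were site 3 (chr5:68255798-68255982, fold 6.77), site 5 (chr5:68280018-68280389, fold 11.2) and site 6 (chr5:68287951-68288131, fold 5.66). The summit of site 6 lay 486 bp upstream of an internal start of PIK3R1, from which shorter forms are transcribed. Site 7 (chr5:68343525-68343790, fold 6.10) lay 41748 bp beyond the gene. Site 4 thus stood above the other NR3C1 sites of the gene in that list, the next being site 5.

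STAT5B lay near the first listed start of PIK3R1 in both untreated lines, at regions that did not overlap. Site 1, from the WT line (chr5:68215344-68215420), had its summit 386 bp upstream of that start, with a fold of 6.20. Site 2, from the N642H line (chr5:68216482-68216638), had its summit 837 bp downstream, with a fold of 4.94 and rank 4104 of 4542. Both rested on few fragments, 12 and 11 over the summit. Neither prednisolone list had a STAT5B region at PIK3R1.

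PIK3CD encodes p110δ, the catalytic subunit most used in lymphocytes, and all of its 6 regions came from the N642H line. Its span is chr1:9627258-9729114, on the plus strand. Site 2 was the single member site at which STAT5B was listed with prednisolone. There the untreated N642H STAT5B region (chr1:9717645-9718059) had a fold of 15.5 and a −log10 q of 37.5, rank 26 of 4542, the strongest STAT5B region at any of the 8 genes. With prednisolone the STAT5B region (chr1:9717735-9717959) had a fold of 9.0, rank 100 of 446, and the NR3C1 region (chr1:9717768-9718026) a fold of 10.3, rank 957 of 2888. The 3 summits spanned 90 bp, inside the gene and more than 26 kb downstream of its nearest listed start. The start of the neighbouring annotation LOC124903839 lay 823 to 913 bp away.

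The 43 fragments over the untreated STAT5B summit, on a local background of 1.83, put the fold between 11.3 and 20.8. The 13 with prednisolone, on a local background of 0.556, put it between 5.09 and 14.9. These fold intervals come from exact 95% Poisson intervals of the fragments with the local background held fixed. They cover counting error only, and they overlap. At site 1, near the 5′ end of the span, NR3C1 (chr1:9629184-9629686) had a fold of 9.83 and untreated STAT5B (chr1:9629207-9629406) a fold of 7.66, with summits 17 bp apart. That site also lies in LOC105376712. Site 3 (chr1:9721830-9722015) held untreated STAT5B alone, with a fold of 7.99.

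PIK3CG, which encodes the p110γ catalytic subunit activated by G-protein-coupled receptors, had no region within 50 kb in any list. Its span is chr7:106865282-106908980. The nearest regions lay upstream, just inside a 100 kb window, and both were NR3C1 with prednisolone. The N642H-line region (chr7:106767154-106767373) lay 98008 bp away with a fold of 14.5, and the WT-line region (chr7:106767151-106767349) lay 98002 bp away with a fold of 7.99.

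PIK3IP1 encodes a transmembrane inhibitor of class I PI3-kinase, expressed on T cells. It had 1 site, inside the gene (chr22:31281593-31292534, minus strand), held by NR3C1 in both lines and by STAT5B in neither. The N642H-line region (chr22:31286306-31286663) had a fold of 31.0 and a −log10 q of 91.4, rank 162 of 2888. The WT-line region (chr22:31286290-31286587) had a fold of 14.3 and a −log10 q of 35.5, rank 151 of 995. The summits lay 6029 and 6018 bp downstream of the nearest listed start. PIK3IP1 has the shortest span of the 8 genes, 10942 bp.

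**Figure D3:**
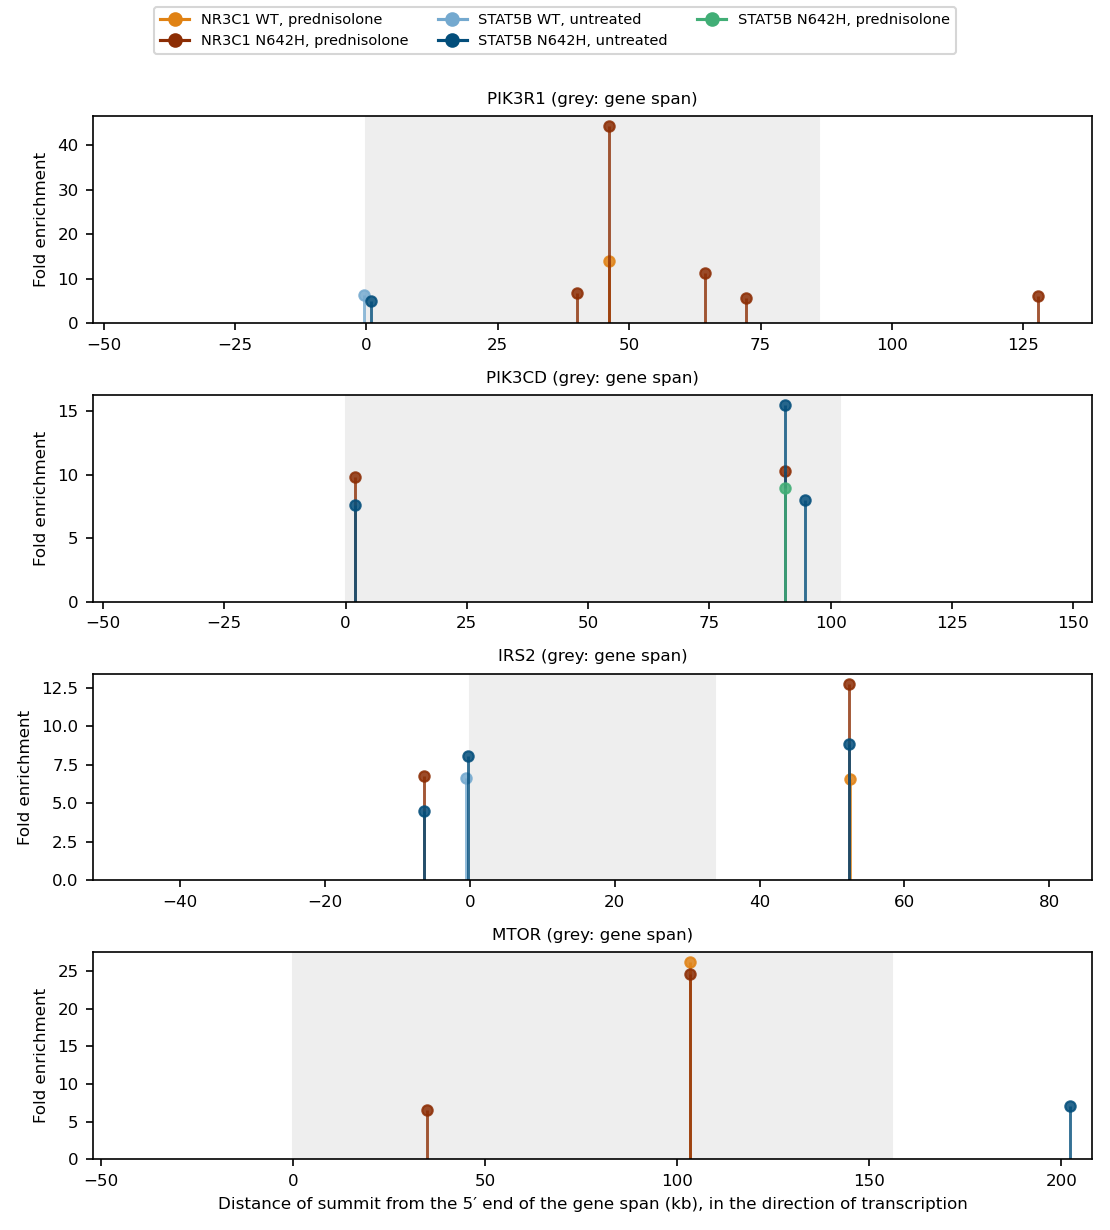
Position of each summit along PIK3R1, PIK3CD, IRS2 and MTOR, in kb from the 5′ end of the gene span in the direction of transcription (x axis), against fold enrichment (y axis, own scale for each gene). Grey marks the gene span and colour the library. The strongest NR3C1 regions stand inside PIK3R1 and MTOR. Beyond the 3′ end of IRS2 stand the strongest NR3C1 and the strongest STAT5B regions of that gene, and STAT5B regions also stand near the 5′ ends of PIK3R1 and IRS2.

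IRS2 encodes an adaptor of the insulin and cytokine receptors that binds the regulatory subunit of PI3-kinase. It had 3 sites and 7 regions, all outside its span (chr13:109752695-109786583, minus strand). Site 3, more than 18 kb beyond the 3′ end, was held by NR3C1 of both lines and by untreated N642H STAT5B. There NR3C1 had a fold of 12.8 in the N642H line (chr13:109734064-109734288) and 6.55 in the WT line (chr13:109734063-109734173, rank 890 of 995), and STAT5B a fold of 8.82 (chr13:109734087-109734282). Site 1 held NR3C1 (chr13:109792824-109792960, fold 6.80) and untreated STAT5B (chr13:109792791-109792962, fold 4.50) of the N642H line. Its summits lay 6312 and 6303 bp upstream of the IRS2 start, and LOC124903211 was the nearer gene.

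Site 2 of IRS2 covered the start of LOC124903211, which lies 501 bp upstream of the IRS2 start and points away from it. The STAT5B region of the untreated N642H line (chr13:109786770-109787137) had a fold of 8.05, with its summit 270 bp upstream of the IRS2 start. The WT-line region (chr13:109786846-109787109) had a fold of 6.61, with its summit 511 bp upstream of that start, 10 bp inside LOC124903211. The 250 bases upstream of each start are shown because they hold most of both STAT5B regions. They come from RefSeq promoter sequences on GRCh38.p14 and are written 5′ to 3′ in the direction of each gene. IRS2 is at chr13:109786584-109786833 on the minus strand and LOC124903211 at chr13:109786834-109787083 on the plus strand. Capitals mark bases inside the N642H-line STAT5B region in the IRS2 sequence, which the WT-line region does not reach, and bases inside the regions of both lines in the LOC124903211 sequence.
IRS2: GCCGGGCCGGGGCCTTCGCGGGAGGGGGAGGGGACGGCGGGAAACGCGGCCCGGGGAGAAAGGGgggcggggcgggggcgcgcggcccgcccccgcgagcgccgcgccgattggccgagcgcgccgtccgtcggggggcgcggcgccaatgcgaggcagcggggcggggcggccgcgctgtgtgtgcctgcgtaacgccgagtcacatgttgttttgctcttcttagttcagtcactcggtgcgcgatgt
LOC124903211: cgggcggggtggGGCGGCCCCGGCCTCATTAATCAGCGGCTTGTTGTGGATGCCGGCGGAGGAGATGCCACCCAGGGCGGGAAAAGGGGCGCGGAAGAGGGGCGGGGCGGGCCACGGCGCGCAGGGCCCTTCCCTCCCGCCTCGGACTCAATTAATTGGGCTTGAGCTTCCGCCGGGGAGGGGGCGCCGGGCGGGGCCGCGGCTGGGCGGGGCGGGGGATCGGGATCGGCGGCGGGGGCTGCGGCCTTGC

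In the IRS2 window 64 of the 250 bases lie inside the N642H-line region, and in the LOC124903211 window 238 bases lie inside regions of both lines. The promoter windows of all members, 300 bases from 250 upstream to 50 downstream of each start, were searched on both strands for a STAT5 motif and a glucocorticoid receptor motif. Of these windows only an AKT2 window and the IRS2 window shared bases with a member region, 40 and 64 bases. The LOC124903211 window was not among them, and the regions outside the windows were not searched. TTCNNNGAA was in 0 of 16 member windows, where 7.66% of all 35116 windows held it. ACANNNTGT was in 1 of 16, where 5.37% of all windows held it. That match reads ACATGTTGT at chr13:109786621-109786629, 46 bp upstream of the IRS2 start and outside the STAT5B regions. It shows the letters in this window and not that the receptor binds there, and no NR3C1 region covered it.

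AKT1 and AKT2 encode serine-threonine kinases that the PI3-kinase lipid recruits. Each had 1 site, held by STAT5B of both untreated lines, and neither had an NR3C1 region within 50 kb. At AKT2 (chr19:40230317-40285345, minus strand) both regions lay at the start. The N642H-line region (chr19:40284862-40285335) had a fold of 6.48, with its summit 135 bp downstream of the start. The WT-line region (chr19:40284994-40285180) had a fold of 4.49 and a −log10 q of 2.85, rank 2061 of 2267, with its summit 329 bp downstream.

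The AKT1 site lay upstream of the gene (chr14:104769349-104795748, minus strand). Its summits were 20375 bp away in the WT line (chr14:104816053-104816217, fold 9.40, rank 136 of 2267) and 20401 bp away in the N642H line (chr14:104815652-104816199, fold 7.06, rank 1140 of 4542). ZBTB42 was the nearest protein-coding gene, at 11411 and 11437 bp, so AKT1 is linked to this site by distance only. This was the strongest member region of the WT-line STAT5B lists.

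MTOR (chr1:11106535-11262551, minus strand) had 3 sites and 4 regions. Site 2, deep inside the gene, held NR3C1 of both lines at nearly the same fold. It was 26.2 in the WT line (chr1:11159071-11159338, rank 88 of 995) and 24.7 in the N642H line (chr1:11159085-11159332, rank 304 of 2888). Site 1 (chr1:11227441-11227681) held N642H NR3C1 with a fold of 6.49, 35001 bp downstream of the start. Site 3 (chr1:11060229-11060456) held untreated N642H STAT5B with a fold of 7.08. It lay 46177 bp from MTOR and 340 bp from the start of SRM, the spermidine synthase gene, and was the member region nearest the 50 kb limit from inside.

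Between 50 and 100 kb away, an untreated N642H STAT5B region lay 67874 bp from PIK3R1 with a fold of 5.60. An untreated WT-line STAT5B region (chr1:11012548-11012666) lay 93934 bp from MTOR with a fold of 6.43, 53 bp from TARDBP. An NR3C1 region of the N642H line lay 86410 bp from AKT2 with a fold of 6.41 and nearer to MAP3K10. Upstream of PIK3R1, at chr5:68122938-68123127, NR3C1 of the N642H line had a fold of 6.49, and STAT5B of the untreated WT line overlapped it with a fold of 6.43, both more than 92 kb away.

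Between the STAT5B forms, the NR3C1 regions of the WT line were all found again in the N642H line. The 4 WT-line regions overlapped N642H-line regions by at least 1 bp, where 89.9% of all 995 did. In the other direction 4 of 12 N642H-line regions overlapped a WT-line region, where 30.7% of all 2888 did. Both member counts are near the shares of the whole lists. The 8 regions missing from the WT line had folds between 5.66 and 11.2. All 8 exceeded 5.25, the lowest fold that the WT-line list held at its lowest background level. At regions shared by the lines the N642H fold was a median of 1.42 times the WT fold. The N642H-line folds thus do not give those of the WT line, and whether the 8 regions fell under its limit was not tested. At the 4 shared sites the N642H fold was 3.19 times the WT fold at PIK3R1, 2.16 times at PIK3IP1, 1.95 times at IRS2 and 0.941 times at MTOR.

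Over all 887 shared N642H-line NR3C1 regions the median of this ratio was 1.42, with quartiles of 1.09 and 1.81, and 82.0% were above 1. A ratio at or above that of PIK3R1 was reached by 3.38% of them, and at or above that of PIK3IP1 by 14.0%. At MTOR 86.2% had a ratio as high or higher. Fold intervals hold each local background fixed. They did not overlap for PIK3R1, at 36.6 to 53.3 against 9.50 to 19.8, or for PIK3IP1, at 24.3 to 38.9 against 10.6 to 19.0. They overlapped for IRS2, at 8.36 to 18.7 against 3.57 to 11.2, and for MTOR, at 17.9 to 33.1 against 19.3 to 34.9. The fragments over the summits numbered 112 against 29 at PIK3R1, 72 against 47 at PIK3IP1, 24 against 11 at IRS2 and 42 against 45 at MTOR.

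**Figure D4:**
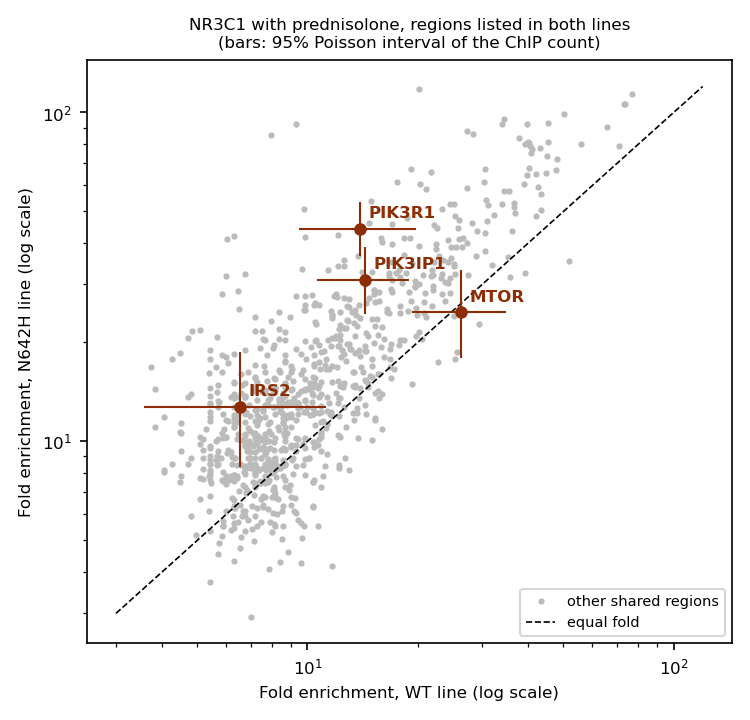
Fold enrichment of NR3C1 with prednisolone in the WT line (x axis, log scale) and the N642H line (y axis, log scale) at regions listed in both. Grey points are the other shared regions, and the dashed line marks equal folds. Bars turn exact 95% Poisson intervals of the fragment count into folds, with the local background held fixed. PIK3R1 and PIK3IP1 lie above the line by more than their bars, IRS2 lies above it and MTOR lies on it.

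For untreated STAT5B, 3 of the 4 WT-line regions overlapped the N642H list, where 61.4% of all 2267 did, and 3 of 10 N642H-line regions overlapped the WT list, where 29.8% did. The shared regions were those of IRS2 site 2, AKT1 and AKT2. Their N642H folds were 1.22, 0.751 and 1.44 times the WT folds, around a median of 1.05 over 1352 shared regions. All 3 PIK3CD regions, both outer IRS2 regions, PIK3R1 site 2 and MTOR site 3 were missing from the WT list. Of these 7, 6 had folds above 4.88, the lowest that the WT list held at its lowest background level. These folds are of the N642H library, so they do not tell whether the regions would have been listed in the WT line.

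With prednisolone 1 of 10 untreated N642H STAT5B regions was still listed, that of PIK3CD site 2, where 6.87% of all 4542 were. In the WT line 0 of 4 were, where 19.9% of all 2267 were. The 9 regions that were missing in the N642H line had folds between 4.50 and 8.82 untreated. Of these, 6 exceeded 6.87, the lowest fold in the prednisolone list at its lowest background level. In the WT line 2 of the 4 missing regions exceeded the matching value of 6.21. The lowest background level shared by at least 5 regions was 0.977 fragments in the untreated N642H STAT5B library and 0.310 with prednisolone. A fold adds 1 to the fragments and to the background, so it depends on depth. These comparisons of folds therefore do not tell whether a region would have been listed. The 9 regions missing in the N642H line had 11 to 24 fragments untreated. The prednisolone list took at least 8 at its lowest background level. At PIK3CD site 2 the fragments were 43 untreated and 13 with prednisolone, on local backgrounds of 1.83 and 0.556. Fragments and background were thus both lower with prednisolone. The part of the background difference in the counts was not tested.

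Between the antibodies, 4 of the 12 NR3C1 regions of the N642H line overlapped untreated STAT5B of that line, where 27.8% of all did. Seen from STAT5B, 4 of 10 regions overlapped NR3C1, where 17.7% of all 4542 did. In the WT line 0 of 4 NR3C1 regions overlapped untreated STAT5B, where 16.3% of all 995 did. The NR3C1 and STAT5B regions compared here come from cells with and without prednisolone, so they need not be bound together in the same cells. At PIK3CD site 2 both were listed with prednisolone.

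The position of the member regions was set beside that of each list. Of the NR3C1 regions, 2 of 12 in the N642H line had a summit within 1 kb of any listed start, where 13.9% of the list did, and 0 of 4 in the WT line, where 8.82% did. Of the untreated STAT5B regions, 5 of 10 in the N642H line did, where 57.9% of the list did, and 3 of 4 in the WT line, where 59.1% did. The 1 prednisolone STAT5B region also did, where 48.2% of its list did. The median fold of the member regions was 10.1 for NR3C1 in the N642H line, where the list's median was 8.26, and 14.1 in the WT line, where it was 8.68. For untreated STAT5B it was 7.37 against 6.13 in the N642H line and 6.41 against 6.25 in the WT line.

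A further 56 genes of the pathway were followed in the same way. At least 1 region was linked to 36 of them in some list, and 20 had none, among them the regulatory subunit genes PIK3R2, PIK3R5 and PIK3R6 and the transcription factor gene FOXO1. The share of all genes with a region in any list was not computed. NR3C1 with prednisolone was linked to 10 of 56 in the WT line and 22 in the N642H line. That is 17.9% and 39.3%, against 6.44% and 16.7% of all genes. Untreated STAT5B was linked to 19 and 27, which is 33.9% and 48.2%, against 23.2% and 39.4% of all genes. Prednisolone STAT5B was linked to 6 and 4, which is 10.7% and 7.14%, against 9.61% and 4.84%. The untreated NR3C1 lists were linked to 0. The median span of these genes, 83.3 kb, is longer than that of all genes, 24.1 kb, and the shares of all genes were not matched for it.

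The named genes follow by role, negative regulators first, each with the fold of its strongest linked region in a list. DDIT4, whose product restrains mTOR complex activity, had NR3C1 folds of 43.3 in the WT line and 77.9 in the N642H line, at a site more than 24 kb away and nearer to ANAPC16. TXNIP, whose product limits glucose uptake, had NR3C1 folds of 9.28 and 92.1, at a site 10786 bp away in the N642H line and nearer to HJV. In that line TXNIP also had STAT5B folds of 9.18 untreated and 10.1 with prednisolone, 10852 and 10842 bp away. TSC1, a subunit of the complex that inhibits mTOR signalling, had untreated STAT5B folds of 10.4 in the WT line and 9.61 in the N642H line. With prednisolone the N642H line had a STAT5B fold of 7.19 and, 39649 bp away, an NR3C1 fold of 7.26. INPP5D, which encodes the lipid phosphatase SHIP1, had STAT5B folds of 7.70 and 8.94 untreated and of 6.66 in the WT line with prednisolone, and an N642H-line NR3C1 fold of 3.77, all inside the gene. SESN1, a stress-induced inhibitor of mTOR signalling, had NR3C1 folds of 7.27 and 13.4 inside the gene, where ARMC2 overlaps it.

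At receptors and adaptors, IRS1, the other main insulin receptor substrate, had an NR3C1 site inside the gene. Its folds were 43.5 in the WT line and 50.5 in the N642H line. The WT line also had STAT5B folds of 5.31 untreated, inside IRS1, and 6.35 with prednisolone, 36238 bp away. INSR, the insulin receptor gene, had an NR3C1 fold of 8.38 inside the gene in the WT line. Its strongest N642H-line NR3C1 region, with 12.1, lay 43470 bp away and nearer to ARHGEF18. Untreated STAT5B had folds of 6.41 in the WT line, 42598 bp away, and 5.64 in the N642H line, inside INSR. The adaptor gene GAB2 had an NR3C1 fold of 13.5 in the N642H line and was linked in no other list. At kinases and mTOR subunits, GSK3B, which encodes a kinase that AKT inhibits, had NR3C1 folds of 20.3 and 60.7 inside the gene. Its untreated STAT5B folds were 4.62 in the WT line and 5.76 in the N642H line. RPTOR, the defining subunit of mTOR complex 1, had NR3C1 folds of 20.8 and 26.6 at a site more than 15 kb away. STAT5B had folds of 10.1 inside RPTOR in the untreated N642H line and 7.78 in the prednisolone WT line, 25516 bp away. RICTOR, that of complex 2, had an NR3C1 region in the N642H line, with a fold of 26.0, and an untreated STAT5B region in the WT line, 11 bp from the gene, with a fold of 6.94. RPS6KB1, which encodes an S6 kinase, had an N642H-line NR3C1 region with a fold of 22.8, 23531 bp away and nearer to TUBD1, and an untreated WT-line STAT5B region inside the gene with a fold of 6.16. PIK3C2B, a class II PI3-kinase gene, was linked in 4 lists to regions with folds between 5.53 and 7.58, 21635 to 26566 bp away, the top one by −log10 q being nearest to MDM4. FOXO4, an AKT-regulated transcription factor gene, had an N642H-line NR3C1 region inside the gene with a fold of 8.92. Its untreated STAT5B regions, with folds of 5.65 in the WT line and 13.1 in the N642H line, lay 27329 and 27286 bp away, the latter nearest to SNX12.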

How the data were processed

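NR3C1 and STAT5B ChIP-seq regions were analysed in 8 libraries of SUPT-1 cells, 1 per group. The submitters' processing notes name BWA, MACS2, deepTools and the build hg38. Versions and the control used for each list are not given in the sources used here. For each region the authors deposited a score, an enrichment ratio (fold of the ChIP pileup over its local background), −log10 p, −log10 q and the summit's offset. Replicates were not pooled, since each list is 1 library by its label. The pairing of antibody, line and treatment was taken from the labels.

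Regions on chromosomes 1 to 22, X and Y were linked to genes by summit, using RefSeq spans on GRCh38.p14. ChIP fragments at each summit were solved from fold and −log10 p with the Poisson formula of the peak caller and a pseudocount of 1. A pileup unit was 1 fragment, or 0.894 and 0.849 of a unit per fragment in the NR3C1 and STAT5B WT-line prednisolone lists. Fold intervals come from exact 95% Poisson intervals of the fragments with the local background held fixed, and cover counting error only. In the NR3C1 N642H prednisolone list 2863 of 2888 regions could be solved, and in the other long lists all could. Python 3.11.15, numpy 2.4.6, pandas 2.3.3 and SciPy 1.17.1 were used. A single solution was found for 91.9% to 97.5% of the regions of the long lists. On simulated data linking, overlap and fragment counts were recovered in 100% of cases. The simulated folds were made with the same formula, so this checks the code and not whether the formula holds for the deposited lists.

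With 1 library per group no test was run, and members are described by counts beside the same share over all regions or genes. The members and gene lists were chosen with earlier results of these data known. Text names all 8 genes, nearest genes, the check genes, and of 56 pathway genes the 10 with the highest −log10 q and 5 more linked in the most lists. 1 gene that this rule names is not reported here, and PIK3R2, PIK3R5, PIK3R6 and FOXO1 were added after their values were seen. Alternatives changed the distance, thresholds, list length and overlap rule. Transcript starts came from RefSeq promoter windows, which had none on chromosome 8, so shares near starts leave that chromosome out.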

Additional observations from a re-analysis of the deposited data

How the results depend on the processing

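Of 138 recomputed values under 8 alternatives for 22 counts, 126 stayed within 1.5 times the reported count and 12 did not. No count moved that far with a distance of 20 kb or 100 kb, a −log10 q of at least 5, a fold of at least 5, or summits within 500 bp. With each long list held to its 446 strongest regions, NR3C1 N642H prednisolone member regions went from 12 to 3 and genes from 5 to 3. Under the same setting untreated N642H STAT5B went from 10 regions to 2 and from 6 genes to 2, and untreated WT STAT5B from 4 regions to 1 and from 4 genes to 1. Untreated N642H STAT5B regions at WT-line STAT5B went from 3 to 0, and N642H NR3C1 regions at untreated STAT5B from 4 to 0. This setting keeps fewer regions by construction. With an overlap of 50% of each region, untreated N642H STAT5B regions at WT-line STAT5B went from 3 to 1. In an alternative chosen after seeing the data, only regions whose nearest protein-coding gene was the member counted. Untreated N642H STAT5B then had 6 regions, and untreated WT STAT5B 2 regions at 2 genes. No paired analysis was possible because each group held 1 library and no result came from a test. Weak regions limit what can be read: at the lowest background level a region needed 7 to 10 fragments to be listed, so a missing region is not an unbound one.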
